A study of Oncorhynchus tshawytscha with 15 samples.

Results

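A set of 33 contigs was defined by a near loss of reads in gill at 25° with little or no loss at 21°. A contig is a stretch of transcript that the authors assembled from the reads themselves, without a genome. The deposited table lists 183740 contigs. Members were chosen from CPM, the total reads of a contig per 1000000 reads summed over all contigs of the library. A contig had to average at least 2 CPM over the 6 libraries at 12° and 15°, and to average at 21° at least 0.75 times that mean. Its highest CPM at 25° also had to lie below 0.2 times its lowest CPM in the 12 other libraries. The level was met by 58096 contigs, and 52385 of these met the condition at 21°. The condition at 25° left 33, fewer than the limit of 200 that the rule allowed, so all 33 were kept. The levels at 25° and the means at 21° therefore chose these contigs. They are given as a description, and no call at 25° or 21° is a result about the set.

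The libraries held gill RNA of juvenile fall-run Chinook salmon (Oncorhynchus tshawytscha) from Merced River Hatchery, 5 months after hatching and reared at 12°. Each of the 15 libraries was a pool of RNA from 11 fish, with 3 pools at each temperature. Fish at 15°, 18°, 21°, and 25° had a water bath of 3 hr at that temperature and 1 hr of recovery at 12°. The 12° control group was handled in the same way and stayed at 12°. All groups, controls included, spent the preceding night in the chambers at 12°. Some of the fish in the hottest bath lost responsiveness or did not survive it, and these were sampled when this was seen, so the pools of that group can mix fish with and without the whole treatment. The replicate runs were made on successive days. A pool gives no value for single fish. The p-values set a difference between temperatures against the spread between pools of the same temperature, and not against that between fish.

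The gill is the organ in which fish exchange gases with the water, move salts, and excrete ammonia, and its thin epithelium is in direct contact with the heated water. Under severe heat, cells of many species raise the transcripts of chaperones, the proteins that refold or hold damaged proteins, while transcription of many other genes is reduced. The level of an RNA in a tissue depends on how fast it is made and how fast it is broken down, and RNAs with a short lifetime are the first to fall when synthesis stops. Read counts in a tissue sample cannot tell fewer cells of a type from less RNA per cell, nor less synthesis from faster breakdown.

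The table identifies the 33 contigs by number and not by gene, and their sequences were not used here. The paper annotated part of its downregulated contigs by BLAST and lists genes in its supplement, which was not used here either. No role is therefore given for any of the 33, and the tissue label was not checked against marker genes. Contig names in the table have 2 forms. Members of the first form are written here as contig and a number, and members of the second as denovo_contig and a number, since some numbers occur in both. Of the 33, 25 had the first form and 8 (24.2%) the second. The second form made up 31.3% of the 155951 contigs tested and 50% of the 58096 contigs that met the level of 2 CPM. The first form begins with the name of a sequenced library and the second with a de novo label. What this says of their assembly is not given in the sources used here.

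Total reads per library were 58654252 to 90869450. The 3 libraries at 25° had the lowest scaling factors by TMM (trimmed mean of M values, a scaling of library sizes meant to make most contigs level between libraries), 0.786 to 0.839, against 1.01 to 1.08 in the other 12. CPM on column sums therefore reads lower at 25° than TMM does. Over all contigs tested, the median log2 fold change at 25° against 12° was -0.09 with TMM and -0.44 with library totals. For the 33 contigs it was -3.07 with TMM and -3.43 with library totals. A change of scaling moves all contigs of a library alike. With TMM-scaled libraries in the rule, 16 contigs met it, all of them among the 33. The 6 members with less than 5% left at 25° were among these. Of the members described below, contig_268429, denovo_contig_58026, contig_548060, contig_483967, denovo_contig_32054, denovo_contig_15556, and denovo_contig_13637 were among those that did not meet it.

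At 25°, the 33 contigs retained 2.38% to 14.1% of their mean level over 12° and 15° (median 8.83%). The fall in mean CPM was 7.12-fold to 42.1-fold (median 11.3-fold). No member was at 0 in all 3 pools, so near silence means a small remainder here and not an absence of reads. In 6 members less than 5% was left, in 20 it was 5 to 10%, and in 7 it was more than 10%. Over the 58096 contigs that met the level, the median share left at 25° was 72.4%, and 1.39% of them had less than 20% left.

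Summed over the 33 contigs, the reads came to 218, 230.0, and 216 CPM in the pools at 12°, 245, 267, and 238 CPM at 15°, 250.1, 251, and 229 CPM at 18°, 230.1, 235, and 221 CPM at 21°, and 17.8, 19.2, and 24.5 CPM at 25°. The sum was thus nearly level through 21°, with all pools at 15° above those at 12°, and dropped in 1 step at 25°. The rule required the fall at 25° and set a lower limit at 21°, but it did not require a level sum. The contigs that make up this sum are of unlike abundance, and the 4 above 20 CPM made up 40.7% of it at 12° and 15°.

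**Figure D1:**
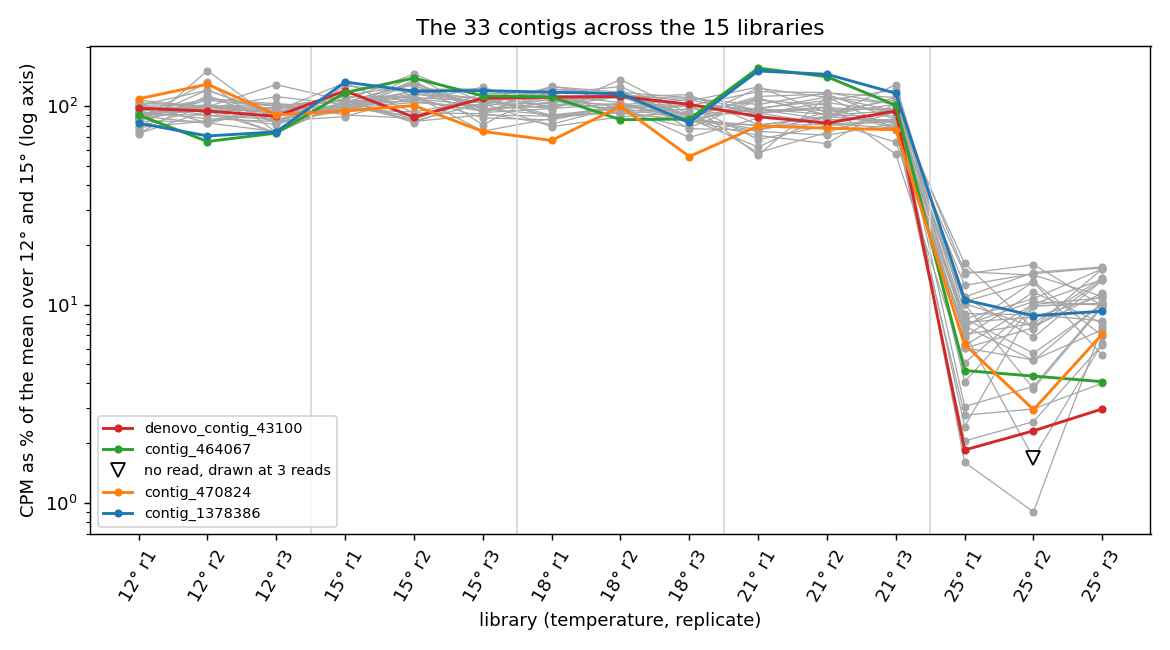
CPM of each of the 33 contigs in each of the 15 libraries, as a percentage of the contig's own mean over 12° and 15° (vertical log axis), with libraries on the horizontal axis from 12° to 25° and 1 line per contig. Lines lie between 55.9% and 156% through 21° and between 0.90% and 16.1% in the libraries at 25° with reads. The open triangle marks the pool of contig_1555201 with 0 reads, drawn at the level of 3 reads, and 4 contigs are coloured.

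The lowest remainder was that of denovo_contig_43100, a contig of 851 bp. It had 2.62, 2.54, and 2.39 CPM at 12°, 3.21, 2.37, and 2.95 CPM at 15°, 2.98, 3.01, and 2.75 CPM at 18°, 2.38, 2.21, and 2.54 CPM at 21°, and 0.0495, 0.0619, and 0.0798 CPM at 25°. The 3 pools at 18° lay above those at 12° and at 21° without overlap, and the pools at 15° overlapped all 3 of these groups. The values at 25° rest on 3, 4, and 5 reads, against 216, 219, and 186 reads at 12°. Its mean at 25° was 2.38% of the mean over 12° and 15°, a fall of 42.1-fold. A count of 3 reads corresponds to 0.0464 to 0.0495 CPM at 25°, so this contig was close to the limit of what these libraries can show. Such limits cover counting error only.

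The second lowest remainder, 3.25%, was in a contig of much higher abundance. denovo_contig_4430 (1604 bp) had 19.9, 19.9, and 14.9 CPM at 12°, 21.3, 26.8, and 18.9 CPM at 15°, 19.8, 21.0, and 17.5 CPM at 18°, 19.6, 22.6, and 15.5 CPM at 21°, and 0.561, 0.604, and 0.814 CPM at 25°. With 34, 39, and 51 reads at 25°, against 1640, 1718, and 1160 reads at 12°, this fall of 30.7-fold is the one with the most reads among the 6 members under 5%. The 3 pools at 25° lay close together, at 0.660 ± 0.135 CPM (SD, n = 3), and their mean was 29.2-fold below that of the pools at 21°.

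Next came contig_1385565 (672 bp), with 4.65, 5.14, and 6.64 CPM at 12°, 5.51, 4.34, and 4.67 CPM at 15°, 4.61, 4.80, and 4.37 CPM at 18°, 3.68, 3.35, and 5.37 CPM at 21°, and 0.0825, 0.0464, and 0.399 CPM at 25°. Its pools at 25° lay far apart, and replicate 3, with 25 reads, was well above replicates 1 and 2, with 5 and 3 reads. contig_1371906 (2078 bp) had 0.0990, 0.124, and 0.303 CPM at 25°, against 4.15, 5.32, and 4.86 CPM at 12°. Here too replicate 3 had the most reads left, 19 against 6 and 8 in the other pools.

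In contig_464067 (1729 bp) the 3 pools at 25° were alike. It had 3.53, 2.60, and 2.86 CPM at 12°, 4.59, 5.43, and 4.42 CPM at 15°, 4.36, 3.35, and 3.37 CPM at 18°, 6.09, 5.51, and 3.95 CPM at 21°, and 0.182, 0.170, and 0.160 CPM at 25°. The highest of its values were at 21° and 15°, where all 3 pools lay above all 3 controls, and the drop in mean from 21° to 25° was 30.4-fold. The sixth contig with less than 5% left was contig_1555201, the shortest of the members at 181 bp. It had 12, 0, and 11 reads at 25°, against 195, 287, and 195 at 12°. Replicate 2, with 0 reads, allows up to 0.0464 CPM, below the 0.198 and 0.176 CPM of replicates 1 and 3. With so few reads, replicates 1 and 3 cannot be ranked.

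At the other end of the set, contig_483967 (744 bp) kept 14.1%. It had 0.743, 0.851, and 0.910 CPM at 25°, against 6.0, 5.36, and 4.80 CPM at 12°. Every member had its pools at 25° below all others by the rule, and the drop in mean CPM from 21° to 25° was 6.32-fold to 37.3-fold (median 10.5-fold). The lowest pool at 21° was 5.06 to 27.6 times as high as the highest at 25°.

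In CPM, which takes no account of length, the most abundant member was contig_268429 (2615 bp). This contig was also the steadiest across the 12 libraries outside 25°. It had 25.1, 26.2, and 27.1 CPM at 12°, 26.0, 28.4, and 24.9 CPM at 15°, 27.8, 26.8, and 28.4 CPM at 18°, 24.3, 25.9, and 25.0 CPM at 21°, and 1.58, 2.01, and 3.99 CPM at 25°. Its highest value at 12° to 21° was only 1.17 times its lowest, whereas the pools at 25° ranged from 1.58 to 3.99 CPM, with replicate 3 the highest at 250 reads against 96 and 130. denovo_contig_19396 (1991 bp) had 22.1, 25.3, and 25.1 CPM at 12°, 27.3, 28.0, and 25.9 CPM at 15°, 32.3, 30.2, and 28.4 CPM at 18°, 24.6, 24.5, and 25.1 CPM at 21°, and 1.55, 1.35, and 1.91 CPM at 25°. It held 6.26% at 25°, the lowest remainder among the members above 20 CPM after denovo_contig_4430.

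denovo_contig_58026 (2095 bp) had 25.7, 23.8, and 22.8 CPM at 12°, 22.9, 22.4, and 25.6 CPM at 15°, 26.5, 23.6, and 24.1 CPM at 18°, 28.3, 28.0, and 24.5 CPM at 21°, and 2.61, 3.47, and 3.70 CPM at 25°. Its remainder, 13.7%, was among the largest of the set, and its 158 to 232 reads per pool at 25° were the most of any member in sum. contig_548060 (320 bp) had 11.8, 11.7, and 11.1 CPM at 12°, 13.6, 16.9, and 12.5 CPM at 15°, 13.0, 14.4, and 14.8 CPM at 18°, 10.4, 11.5, and 10.9 CPM at 21°, and 1.85, 2.06, and 1.28 CPM at 25°. contig_1415570 (636 bp) had 9.78, 12.3, and 11.4 CPM at 12°, 12.5, 14.8, and 13.6 CPM at 15°, 13.3, 13.9, and 13.6 CPM at 18°, 12.7, 14.5, and 13.8 CPM at 21°, and 0.380, 0.480, and 1.23 CPM at 25°. In contig_548060 replicate 3 was the lowest of the pools at 25°, and in contig_1415570 it was the highest, so the order of the pools was not the same in all members.

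Levels can be compared between contigs only per length, and for this the authors' RPKM (reads per 1000 bases of contig and per 1000000 reads) was used. Mean RPKM over 12° and 15° was 0.979 to 40.4 among the members (median 7.36), against a median of 7.45 over the contigs that met the level and 1.5 over all contigs tested. contig_548060 was the highest at 40.4 RPKM, followed by contig_1415570 at 19.5, denovo_contig_32054 at 17.3, and contig_1426110 at 16.9. denovo_contig_13637 was the lowest at 0.979. At 25°, contig_548060 had 5.40 RPKM, more than 16 of the members had at 12° and 15°. On this scale the median of the members was close to that of the contigs that met the level. In CPM, 19 of the 33 averaged under 5, 7 had 5 to 10, 3 had 10 to 20, and 4 had more than 20.

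**Figure D2:**
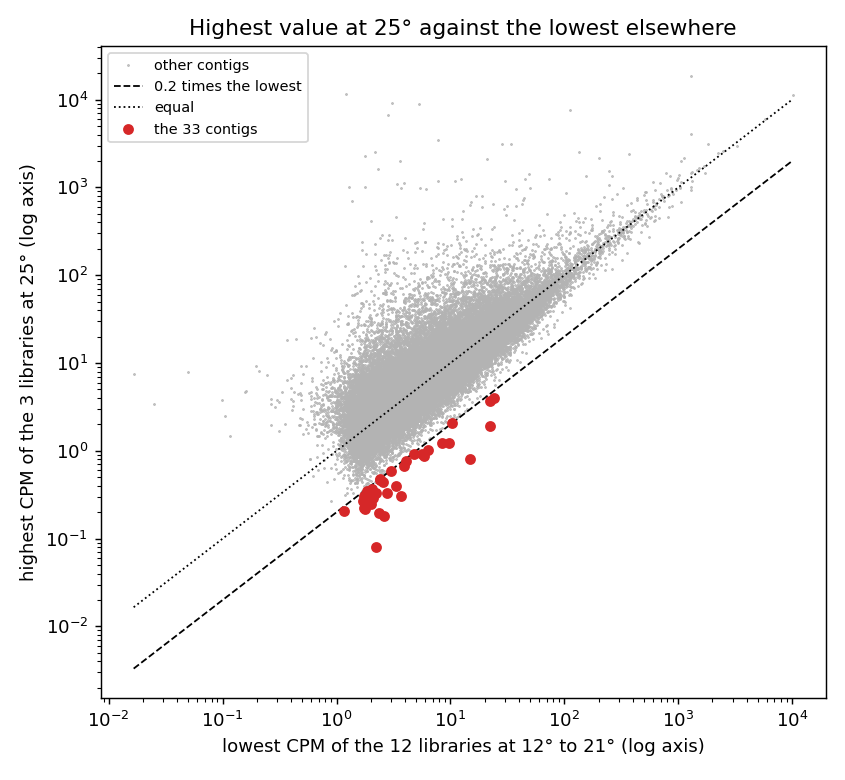
Highest CPM of the 3 libraries at 25° (vertical log axis) against the lowest CPM of the 12 libraries at 12° to 21° (horizontal log axis) for 52384 contigs that met the conditions on level and on 21° (1 with a value of 0 is not drawn). The 33 contigs (red) lie below the dashed line at 0.2 times the lowest value, and the cloud of other contigs reaches that line without a gap.

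The limits of the set are not marked by a gap. Just inside the ratio of 0.2 lay contig_1789242 at 0.196, contig_548060 at 0.197, and contig_1786818 at 0.198. Just outside lay contig_306194 and contig_576529, both at 0.201, and denovo_contig_31805 at 0.202. At the lower limit for 21°, contig_1372917 was inside at 0.754, denovo_contig_5994 at 0.762, and contig_1382029 at 0.774, whereas denovo_contig_43204 was outside at 0.722 and contig_1372126 at 0.711. At 25°, contig_1372126 retained 1.71%, less than any of the 33. At the limit of 2 CPM, contig_1427413 was inside at 2.04, and contig_1420222 outside at 1.999.

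Beyond these limits were 32 contigs with the same fall at 25° and the same level, which were left out because their mean at 21° was below 0.75 times the mean over 12° and 15°. Their means at 21° were 0.333 to 0.722 times that level (median 0.652), and at 25° they held 1.28% to 12.3% (median 6.34%). At 18°, which the rule did not use as a mean, they were at 0.482 to 0.999 times that level (median 0.772), against 0.745 to 1.18 times (median 1.02) in the 33 contigs. This difference at 18° goes with the split at 21° and was not tested. Another 282 contigs met both the condition at 25° and that at 21° but averaged under 2 CPM.

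Whether these contigs changed at the lower temperatures was tested at 15° and at 18°, where the rule set no direct limit on the difference from 12°. The rule still used the libraries at 15° in its mean, and those at 15° and 18° in its lowest value. At 15°, 0 of the 33 were upregulated and 0 downregulated (edgeR's quasi-likelihood test at a Benjamini-Hochberg adjusted p below 0.01 and a fold change above 2), and over all contigs tested 0.0% were upregulated and 0.0% downregulated. The adjusted p was 1.0 for all 33 members. At an unadjusted p below 0.05, 4 members were higher at 15° and 0 lower, against 1914 higher and 1904 lower of the 155951 contigs tested. DESeq2 also called 0 of the 33 at 15°.

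The log2 fold changes of the members at 15° were -0.30 to 0.69, with a median of 0.15 against -0.01 over all contigs tested. They were above 0 in 25 of the 33 and in 48.8% of all contigs. In CPM on column sums, all 3 pools at 15° lay above all 3 pools at 12° in 11 of the 33. This was so in 5.05% of all contigs tested and in 5.48% of those that met the level. Some of these separations are narrow and depend on the scaling, and they were not counted with TMM. None of the 33 had all pools at 15° below the controls, against 3.66% of all contigs. The replicate that was highest of the 12 libraries outside 25° was 15° replicate 2 in 12 of the 33 members. Without that library the median log2 fold change of the members at 15° was 0.10, against 0.15 with all 6 libraries. The rule drew on the same 12° and 15° libraries through their mean and their lowest value, and its part in these counts was not tested.

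The clearest case was contig_1378386 (1892 bp). It had 6.81, 5.87, and 6.15 CPM at 12°, 11.0, 9.88, and 9.94 CPM at 15°, 9.76, 9.59, and 6.87 CPM at 18°, 12.5, 12.0, and 9.63 CPM at 21°, and 0.875, 0.727, and 0.766 CPM at 25°. All 3 pools at 15° were above all 3 controls, with a log2 fold change of 0.69 (SE 0.13). The same was so at 18° in CPM on column sums, with a log2 fold change of 0.49 (SE 0.16). There the margin was small, 6.87 CPM in 18° replicate 3 against 6.81 CPM in 12° replicate 1. Their TMM factors were 1.036 and 1.014, so this separation depends on the scaling. Neither difference passed the threshold after adjustment over all contigs (adjusted p = 1.0 at 15° and 0.311 at 18°, edgeR). At 21°, where the rule had a lower limit only, the log2 fold change was 0.91 (SE 0.15). At 25° the same contig was left with 9.54% of the mean over 12° and 15°, and its mean was 14.4-fold below that at 21°. It was 1 of 6 members with the highest mean at 21°, the last temperature before the fall, while 6 were highest at 12°, 13 at 15°, and 8 at 18°. contig_1384828 (671 bp) had 3.27, 4.43, and 3.21 CPM at 15°, against 2.22, 2.89, and 2.24 CPM at 12°, a log2 fold change of 0.56 (SE 0.20).

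At 18°, 0 of the 33 were upregulated and 0 downregulated by the same test, against 0.0269% and 0.0% of all contigs tested. Adjusted p-values of the members were 0.213 to 0.982 (edgeR). At an unadjusted p below 0.05, 6 members were higher and 1 lower, against 8960 and 7671 of all contigs, and DESeq2 called 0 of the 33. The log2 fold changes were -0.54 to 0.49 (median 0.11, against -0.03 over all contigs). This median was 0.19 without 12° replicate 2 and 0.17 without 18° replicate 3. Of the members, 32 of the 33 lay within 0.5 of 0, against 78.5% of all contigs. All contigs include many of lower level, so these shares are not on equal terms. The median coefficient of variation between pools at 18° was 15.8% over all contigs tested and 7.52% over those that met the level. In CPM on column sums, all pools at 18° lay above all controls in 7 members and below in 0. All contigs had 9.19% above and 8.48% below, and the contigs that met the level 13.0% above and 8.68% below. Separations with TMM were not counted. The rule drew on the 18° libraries through its lowest value. Its limit at 21° also left out 32 contigs with a median of 0.772 times the level at 18°. The part of the rule in these counts was not tested.

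The lowest adjusted p at 18° was that of denovo_contig_19396, which had 32.3, 30.2, and 28.4 CPM at 18°, against 22.1, 25.3, and 25.1 CPM at 12° (log2 fold change 0.35 (SE 0.09), adjusted p = 0.213, edgeR). The groups did not overlap, and the difference was small. denovo_contig_15556 (2728 bp), the longest member, had 9.42, 8.86, and 8.20 CPM at 18°, against 6.91, 6.32, and 7.64 CPM at 12°, a log2 fold change of 0.36 (SE 0.12). The lowest value at 18° was in contig_470824 (1556 bp), with 2.12, 3.15, and 1.76 CPM at 18°, against 3.44, 4.07, and 2.85 CPM at 12° (log2 fold change -0.54 (SE 0.23), adjusted p = 0.445, edgeR). Its groups overlapped, since 18° replicate 2 lay above 12° replicate 3. contig_1385565 and denovo_contig_5994 had the next lowest log2 fold changes at 18°, -0.23 (SE 0.14) and -0.16 (SE 0.16).

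Standard errors on the log2 scale were 0.08 to 0.25 at 18° (median 0.15) and 0.10 to 0.28 at 15° (median 0.17). A change of 2-fold would stand more than 3 standard errors away from 0. Such a distance does not by itself bring an adjusted p below 0.01 over 155951 contigs. At 15°, contig_1378386 lay at 0.69 (SE 0.13) without reaching it. The 0 calls alone therefore do not show that no member changed.

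**Figure D3:**
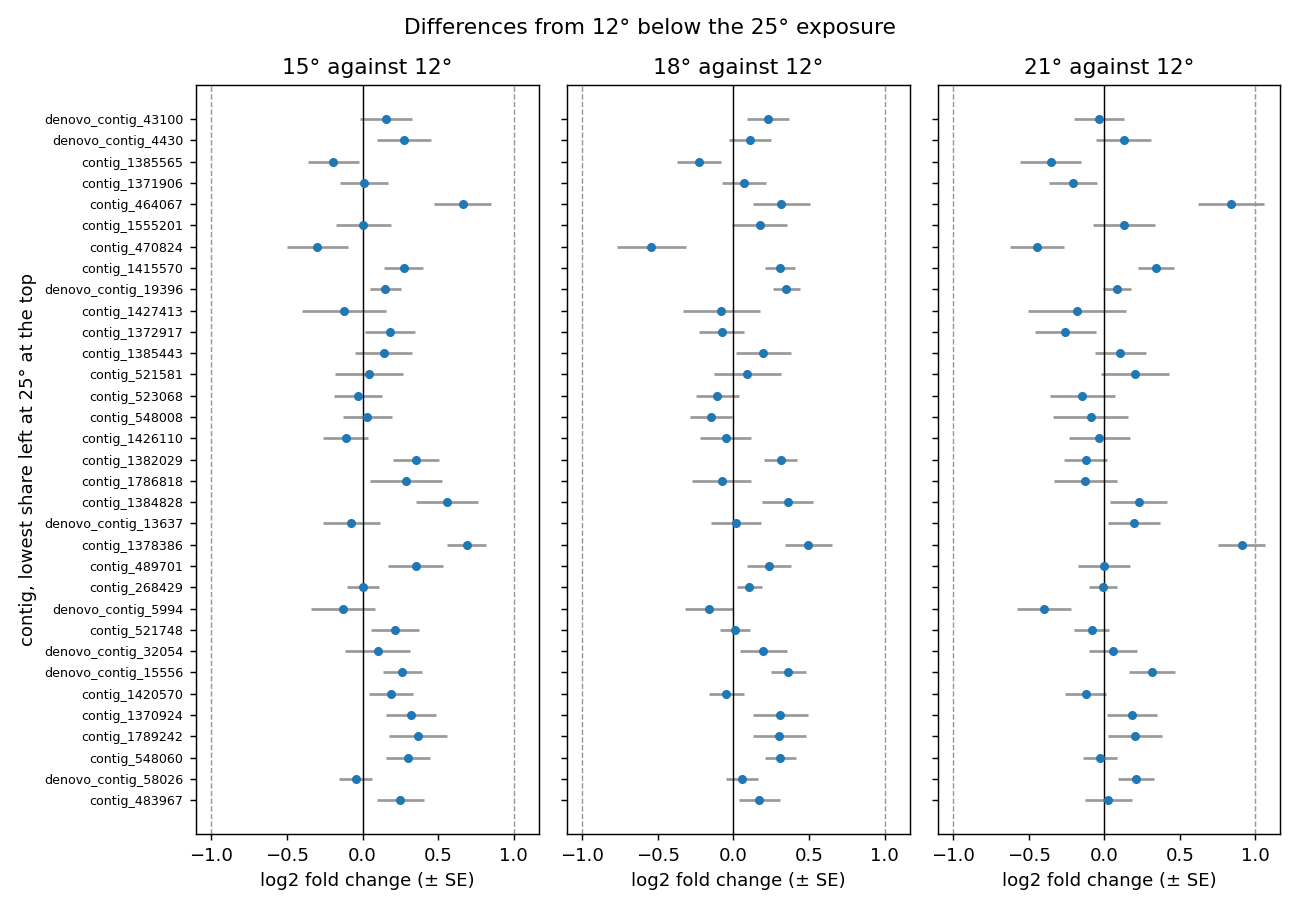
Log2 fold change against 12° (horizontal axis) with its standard error (bars) for each of the 33 contigs (vertical axis, ordered by the share left at 25°, lowest at the top) at 15°, 18°, and 21°, from edgeR fits of 3 pools against 3. Dashed lines mark a change of 2-fold, and all points lie between them, with the highest at 0.91 for contig_1378386 at 21°.

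At 21°, the condition of the rule left out contigs below 0.75 times their level, so the values there only describe the set. The 33 members were at 0.754 to 1.38 times their mean over 12° and 15° (median 0.907). Their log2 fold changes against 12° were -0.44 to 0.91, with a median of -0.00, and 16 were above 0 and 17 below. The call used above was given to 0 of them in either direction, where 0.53% of all contigs were upregulated and 0.0558% downregulated, and nothing is read from this since the rule set the level. In CPM on column sums, all pools at 21° lay above the controls in 3 members (contig_464067, contig_1415570, and contig_1378386). They lay below in 4 (contig_470824, contig_1382029, denovo_contig_5994, and contig_521748). In contig_1382029 the margin was very small, 4.842 CPM in 21° replicate 3 against 4.845 CPM in 12° replicate 1. Such a separation depends on the scaling, and it was not counted with TMM. Over all contigs tested 11.5% lay above and 11.6% below, and over those that met the level 16.5% and 13.1%. These comparisons and those at 15° and 18° share the same 3 control pools.

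At 25°, the choice of members fixed both the call and the separation from the controls, so nothing is read from either. All 33 carried the call of downregulated, which 6.05% of all contigs did with TMM (8.61% were upregulated). These shares depend on the scaling: with library totals, 19289 of the 155951 contigs were downregulated and 9199 upregulated. All 33 had their pools below all controls, which 38.8% of all contigs did in CPM on column sums, a scale that reads lower at 25°. The log2 fold changes with TMM were -4.91 to -2.33.

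The spread between pools was of ordinary size up to 21° and larger at 25°. The median coefficient of variation of CPM over 3 pools was 10.1% at 12°, 13.3% at 15°, 9.17% at 18°, 10.8% at 21°, and 31.5% at 25° in the 33 contigs. Over the contigs that met the level it was 11.5%, 10.3%, 7.52%, 10.6%, and 13.9% at the same temperatures. Members had a median of 18, 21, and 24 reads in replicates 1, 2, and 3 at 25°, and no fewer than 73 reads in any library at 12° to 21°. The rule used the lowest pool at 12° to 21° and the highest at 25°, so these spreads come from values that chose the members. Neither the part of the rule nor that of counting error in the spread was tested. Among the members with the most reads at 25°, contig_268429 had 2.53 ± 1.28 CPM and denovo_contig_58026 had 3.26 ± 0.576 CPM at 25° (SD, n = 3 each). At the other extreme, contig_1426110 (217 bp) had 0.330, 0.325, and 0.303 CPM at 25°, against 3.66, 3.58, and 4.10 CPM at 12°.

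Among the pools at 25°, replicate 3 held the most. It was the highest of the 3 in 21 of the 33 members, replicate 1 in 7, and replicate 2 in 5. Some of these ranks rest on 1 read or on library size alone. In replicates 2 and 3, contig_1427413 had 13 and 13 reads, and contig_548008 had 21 and 22. Such pools cannot be ranked. Replicate 3 was also the highest in 46.2% of the contigs that met the level and in 35.5% of all contigs tested. In 11 members (33.3%) its CPM was more than 1.5 times the mean of the other 2 pools, which was so in 4.62% of the contigs that met the level. The members' reads are fewer, and the part of counting error in this share was not tested. The ratio was 6.19 in contig_1385565, 2.86 in contig_1415570, 2.72 in contig_1371906, and 2.22 in contig_268429. Because the rule took the highest pool at 25°, this library decided much of the membership: without 25° replicate 3, 109 contigs met the rule. Leaving out a pool at 25° can only relax the rule, so all 33 were bound to meet it again. Without 25° replicate 1 or 2 the number was 41 or 44. Which fish in a pool carried the remaining reads cannot be told from a pool.

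**Figure D4:**
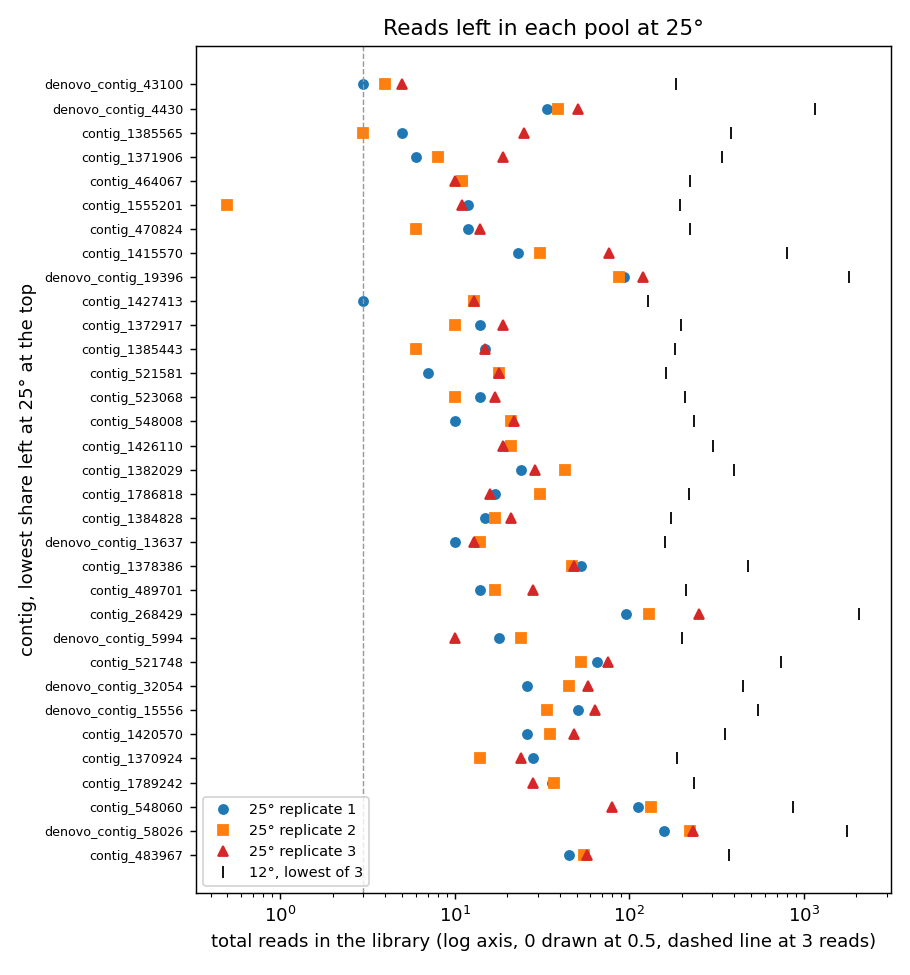
Total reads of each of the 33 contigs (vertical axis, lowest share left at the top) in each pool at 25° (coloured symbols), with the lowest of the 3 pools at 12° (black bars), on a horizontal log axis. Pools at 25° had 0 to 250 reads per contig, the value of 0 is drawn at 0.5, and every symbol lies to the left of its black bar.

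Members were of middling length. They were 181 to 2728 bp long (median 851 bp), against a median of 684 bp over all contigs tested and 1053 bp over those that met the level. Of the 33, 4 were under 300 bp (12.1%, against 16.3% of all contigs tested and 14.7% of those that met the level). At least 1000 bp was reached by 14 (42.4%, against 32.2% of all contigs tested and 52.1% of those that met the level). The longest were denovo_contig_15556, contig_268429, denovo_contig_13637, and denovo_contig_58026. Of these, denovo_contig_13637 (2135 bp) had 1.96, 2.27, and 2.16 CPM at 12°, 1.89, 1.82, and 2.44 CPM at 15°, 2.40, 2.18, and 1.78 CPM at 18°, 2.59, 2.32, and 2.16 CPM at 21°, and 0.165, 0.217, and 0.207 CPM at 25°. Its values at 12° to 21° were low and level, and its pools at 25° had 10, 14, and 13 reads.

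Reads of nearly all members aligned to 1 contig only. In 27 of the 33 every read was unique, against 109025 of the 155951 contigs tested and 33865 of the 58096 that met the level. At least 99% of reads were unique in 30 members, against 140228 of the contigs tested and 50902 of those that met the level. A high share of unique reads was thus common among all contigs. The exceptions were denovo_contig_32054 with 37.2%, contig_548060 with 93.8%, and contig_1786818 with 98%. denovo_contig_32054 (400 bp) had 7.23, 6.91, and 5.78 CPM at 12°, 6.59, 9.38, and 5.58 CPM at 15°, 8.45, 8.04, and 6.11 CPM at 18°, 7.60, 6.24, and 6.19 CPM at 21°, and 0.429, 0.696, and 0.926 CPM at 25°. Counted on unique reads, it averaged 0.244 CPM at 25°, against 2.53 at 12°, and 9.16% of the mean over 12° and 15° was left, against 9.89% with all reads. Reads of this contig are shared with at least 1 other contig, so its level is uncertain. With unique reads in the rule, 33 contigs met it, 32 of them the same. contig_548060, at the edge of the ratio, was lost, and contig_1420222 was gained. Unique alignment does not separate gene copies that were assembled into 1 contig.

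Outside 25° the members shared little of their variation between pools. Over the 12 libraries at 12° to 21°, with each group's mean removed from log2(CPM + 1), the mean correlation between pairs of members was 0.109, against 0.0135 between pairs of all contigs tested and 0.0102 among those that met the level. With TMM-scaled libraries these values were 0.131, 0.000784, and 0.0447, so the contrast with contigs that met the level was smaller. The closest of the 528 pairs were contig_1415570 with contig_1427413 at 0.833 and contig_523068 with contig_1426110 at 0.831. These points share libraries and depth, and the closest of many pairs are high by choice. The library with the lowest mean deviation of the members was 18° replicate 3 (-0.10 on the log2 scale), and the highest were 18° replicate 2 and 12° replicate 2 (both 0.07).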

How the data were processed

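Gill RNA of pooled juveniles was measured by RNAseq in 15 libraries, and temperature and replicate number come from the sample labels. According to the methods, the authors trimmed the reads (Cutadapt), assembled contigs, and aligned the reads back in CLC Genome Workbench. The deposited counts per contig, as total and as unique reads, are whole numbers that the authors did not normalize. The deposited RPKM values were scaled by the authors by contig length and column sum. Contig length is the column that RPKM rests on. Of the 98 columns, 16 hold the authors' own test results and 34 hold repeated values, repeated lengths, and group means, and none of these was used. No column belonged to a sample outside the series.

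Testing was limited to contigs with 10 or more reads in 3 or more of the 15 libraries. Each heated group was compared with 12° in a fit of 6 libraries with edgeR 4.0.16 (R 4.3.3), using TMM, glmQLFit, and glmQLFTest, with Benjamini-Hochberg adjustment over all contigs tested. Calls needed an adjusted p below 0.01 and more than a 2-fold change. The SE of a log2 fold change was derived from its F statistic (log2 fold change over the root of F). DESeq2 1.42.0 was an alternative. The fits were tested on simulated data in which 200 of 155949 contigs were changed. edgeR called all 200 with 2 false calls, and DESeq2 called all 200 with 4. With the real data at 25°, edgeR called 13424 up and 9429 down, so the simulation does not show how the fits behave there. Other values were computed with Python 3.11.15, numpy 2.4.6, and pandas 2.3.3. CPM used column sums unless TMM is named.

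The members and lists were chosen with earlier results of these data known. Contigs described by name are the 6 with the lowest share left at 25°, the 6 most abundant in CPM, and the 4 longest. The 3 with the lowest share of unique reads, the 3 highest and 3 lowest at 18°, and those nearest each limit are also named. Others were named after their values were seen. Alternatives were other scalings, DESeq2, 2 filters, a threshold of 0.05, all 15 libraries in 1 fit, the replicate number as a block, unique reads, each library left out, and other limits in the rule. Depth per library is given above, and 3 reads were taken as the lowest count that can be told from 0.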

Additional observations from a re-analysis of the deposited data

How the results depend on the processing

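The counts of called members were the same at each temperature under every alternative run, including library totals, DESeq2, both filters, an adjusted p below 0.05, and each library left out: 0 up and 0 down at 15°, 18°, and 21°, and 33 down at 25°. These counts say little of stability. Of all contigs at 15°, edgeR called 0 and DESeq2 called 0 up and 2 down, and the rule fixed the count at 25°. With each library left out, the median log2 fold change of the members ranged from 0.10 to 0.22 at 15° and from 0.08 to 0.19 at 18°. The median log2 fold change at 25° was -3.43 with library totals, against -3.07 with TMM. It was between -3.18 and -2.91 under the other alternatives for which it was computed. The median was not computed for the DESeq2 test or for either filter. The number of contigs that met the rule depended on its limits. Against 33, it was 16 with TMM-scaled libraries, 62 and 14 with a level of at least 1 and 5 CPM, 6 and 201 with a ratio at 25° below 0.1 and 0.3, and 60 and 8 with a ratio at 21° of at least 0.5 and 1.0. With each library left out it ranged from 32 to 109, and the highest number was without 25° replicate 3.

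With the replicate number as a block, 0 members were called at 15°, 18°, and 21° and 33 at 25°. The labels do not tie the numbers to days, and 3 numbers per group are too few to tell whether same-numbered libraries are pairs. Correlations between deviations of same-numbered libraries at 12° and at a heated temperature were taken over 58096 contigs. They were -0.59, -0.23, and 0.59 at 15°, and 0.57, 0.37, and -0.16 at 18°. At 21° they were 0.47, -0.15, and 0.77, and at 25° -0.71, -0.28, and -0.29. At these temperatures 1, 2, 1, and 0 of the 3 replicate numbers had the best correlation with their own number. Over all contigs tested, the block changed the calls at 21° from 827 up and 87 down to 1109 and 193. At 25° it changed them from 13424 up and 9429 down to 9178 and 4529. At 25°, a median of 18 to 24 reads per member and pool limits how well the remainders can be told apart.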
